A study of Mus musculus with 4 samples.

Results

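The genes described here make up the core of the MHC class I presentation pathway: the heavy chains H2-K1 and H2-D1, their light chain B2m, the peptide transporter genes Tap1 and Tap2, the loading factor gene Tapbp, the immunoproteasome subunit genes Psmb8 and Psmb9, and the transactivator gene Nlrc5. They were found by symbol among the gene rows of the 4 deposited matrices, which gave 9 of 32285 genes, and all 9 had reads in every library. RNA and surface antibodies were counted together in single CD45.2+Kit+ mouse bone marrow cells 10 weeks after transplantation. Kit is the receptor for stem cell factor carried by blood progenitors, and CD45.2 is an allele of the pan-leukocyte antigen that marks donor cells in CD45-mismatched hosts. Every group shares that sort, that time and the transplantation. Cells came from 4 groups, named control, Mll3SI, Mll4SI and the double mutant Mll3/4SI. Mll3 and Mll4 (genes Kmt2c and Kmt2d) encode histone methyltransferases that act at enhancers, and the labels do not spell out SI. Each group had 1 library, so no test between groups was made and no difference below has a replicate check. Host mice, strain, sex and the number of donors are not given in the sources used here.

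Class I molecules display short peptides from inside the cell at its surface, where CD8 T cells and NK cells read them. The proteasome cuts proteins into peptides, and under interferon the catalytic subunits encoded by Psmb8, Psmb9 and Psmb10 replace those of Psmb5, Psmb6 and Psmb7. The transporter made of the Tap1 and Tap2 products carries peptides into the endoplasmic reticulum, tapasin (Tapbp) and calreticulin (Calr) help to load them, and a filled heavy chain bound to beta-2 microglobulin (B2m) moves to the surface. Nlrc5 drives transcription of class I genes through a conserved promoter module, though not necessarily of every gene described here. Interferon raises most of the 9 genes. In blood formation, stem cells are known to carry class I at their surface, and NK cells can reject transplanted cells that lack it.

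In mouse build GRCm38, 7 of the 9 genes lie on chromosome 17, where the MHC is. They are H2-K1 (chr17:33996017-34000347), H2-D1 (chr17:35262730-35267499), Tap1 (chr17:34187553-34197225), Tap2 (chr17:34203527-34216321), Tapbp (chr17:33915899-33929292), Psmb8 (chr17:34197721-34201454) and Psmb9 (chr17:34181987-34187764). B2m lies on chromosome 2 (chr2:122147686-122153083) and Nlrc5 on chromosome 8 (chr8:94434356-94527272).

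Promoters of 4 members are shown, the heavy chains, B2m and Tap1. Over all granulocyte-monocyte-like cells of Mll3/4SI their ratios to control were higher than those of Tap2 and the proteasome genes. Tapbp, at a log2 ratio of 0.29, was also higher than these, and its promoter is not shown. In granulocyte-like cells alone Psmb8 and Psmb9 were also above control, at log2 ratios of 0.41 and 0.27. Each promoter is the 250 bases before the transcription start in the RefSeq table of GRCm38.p6, read 5′ to 3′ on the gene's own strand. Capitals mark the letters of the motifs searched, on either strand.
H2-K1: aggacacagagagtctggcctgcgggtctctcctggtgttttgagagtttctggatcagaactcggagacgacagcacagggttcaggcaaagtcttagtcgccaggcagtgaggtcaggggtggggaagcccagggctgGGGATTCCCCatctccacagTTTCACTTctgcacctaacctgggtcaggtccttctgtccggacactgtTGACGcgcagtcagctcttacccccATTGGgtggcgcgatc
H2-D1: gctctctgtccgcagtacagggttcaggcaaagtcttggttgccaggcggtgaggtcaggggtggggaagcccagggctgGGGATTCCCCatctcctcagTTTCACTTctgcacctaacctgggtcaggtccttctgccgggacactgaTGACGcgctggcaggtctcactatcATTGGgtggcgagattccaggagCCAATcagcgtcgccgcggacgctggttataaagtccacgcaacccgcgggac
B2m: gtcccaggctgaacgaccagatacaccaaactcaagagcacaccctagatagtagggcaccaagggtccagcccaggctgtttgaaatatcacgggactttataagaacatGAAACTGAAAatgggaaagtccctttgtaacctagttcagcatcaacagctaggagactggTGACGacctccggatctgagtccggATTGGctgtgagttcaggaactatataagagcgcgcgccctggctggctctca
Tap1: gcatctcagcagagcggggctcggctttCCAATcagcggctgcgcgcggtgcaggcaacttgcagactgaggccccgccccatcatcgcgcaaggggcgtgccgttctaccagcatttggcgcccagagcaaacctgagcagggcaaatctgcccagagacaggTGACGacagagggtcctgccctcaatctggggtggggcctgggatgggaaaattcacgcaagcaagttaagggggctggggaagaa
The regions are chr17:34000348-34000597 (H2-K1, minus strand), chr17:35262844-35263093 (H2-D1, plus strand), chr2:122147437-122147686 (B2m, plus strand) and chr17:34187306-34187555 (Tap1, plus strand). H2-K1 has 2 entries in that table, and the first was used. Of the 9 members, 7 had an entry, and Tap2 and Nlrc5 had none.

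The core of the interferon-stimulated response element (GAAA, any 2 bases, GAAA) was present in the B2m promoter and in 2.98% of all 32851 promoters of the table. The shorter IRF half-site AANNGAAA, which overlaps it, was in the promoters of H2-K1, H2-D1 and B2m and in 21.3% of all. An NF-kB site of 10 bases, which begins GGGA and ends CCCC in the sequences above, was in H2-K1 and H2-D1 and in 0.0852% of all. In H2-K1 these matches begin at -110 (NF-kB site) and -90 (half-site) from the start, and in H2-D1 at -170 and -150. The promoters of these paralogs matched at 170 of 190 aligned bases, or 89.5%. TGACG, a CRE half-site of the kind found in the X box of MHC promoters, was in 5 of the 7 promoters and 17.8% of all, and ATTGG, the inverted CCAAT of the Y box, in 6 of the 7 and 33.8% of all. Tap1 and Psmb9 start 226 bases apart on opposite strands, so the TGACG counted for each is 1 stretch (chr17:34187470-34187474), as is the ATTGG counted for each (chr17:34187334-34187338). Psmb8 held TTCNNNGAA, the letters of a GAS element, which is in 7.02% of all promoters. Tapbp held ATTGG and none of the other motifs searched. A match describes the sequence and shows no binding.

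After filtering, 6743 control, 8023 Mll3SI, 10186 Mll4SI and 6755 Mll3/4SI cells passed. The median cell had 17003, 13619, 12799.5 and 19172 gene UMIs (unique molecular identifiers, which count RNA molecules) in that order. Libraries shared 16 to 29 barcodes in pairs, at most 0.355% of a library. Kit RNA was detected at 100.3 to 111.8 CPM (UMIs of a gene per 1000000 UMIs of the same cells). Kmt2c was at 110.2 to 147.5 CPM and Kmt2d at 33.3 to 41.5 CPM in the 4 libraries, and the labels do not say whether these transcripts should change. Xist was at 0.0315 CPM in control and 0.194 in Mll3SI, against 1149 in Mll4SI and 1358 in Mll3/4SI. Eif2s3y, a Y-linked gene, was at 63.4, 61.9, 0 and 0 CPM in the same order. Control and Mll3SI thus carry Y-linked RNA, and Mll4SI and Mll3/4SI carry Xist, so that genotype and sex cannot be told apart between these pairs. Mll3/4SI against Mll4SI is the comparison of the double with a single mutant that Xist and Eif2s3y do not separate.

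Cells were clustered jointly without the 9 genes, and clusters were named from marker genes. Clusters 4 and 17 are called HSC/MPP-like, for stem and multipotent progenitor markers (841 control, 832 Mll3SI, 737 Mll4SI and 321 Mll3/4SI cells). Cluster 4, with 11 of these markers, has Mecom and Meis1 among its leading genes. Cluster 17 (230, 235, 284 and 90 of those cells) has 3, none of them among its top 10 genes, and at Leiden resolution 2 a cluster with many of the same leading genes, such as Fut8 and Slco3a1, went unnamed. Granulocyte-like (4317, 5252, 7954 and 5001 cells) and monocyte-like clusters (784, 1091, 955 and 330 cells) together are called granulocyte-monocyte-like. Within that class the libraries were not spread evenly over clusters. Clusters 0, 12 and 19 came to over 80% from Mll4SI, and clusters 13, 15 and 23 from Mll3/4SI. These clusters held 49.5% of the granulocyte-monocyte-like cells of Mll4SI and 49.8% of those of Mll3/4SI, against 1.53% in control and 0.930% in Mll3SI. Cluster 18, with 669 cells of Mll3/4SI and none of the other libraries, stayed unnamed, since stem cell and basophil/mast markers tied among its leading genes.

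Most cells also carried 1 of 2 hashtag antibodies, and the labels do not say what these marked, whether separate animals or something else, so they were not used as replicates. In Mll3/4SI the Hashtag1 and Hashtag2 cells stood apart: 27.7% (exact binomial interval 26.1 to 29.4%) of 2914 Hashtag1 cells and 63.1% (61.5 to 64.7%) of 3641 Hashtag2 cells lay in clusters 13, 15, 18 and 23. The members' levels in Mll3/4SI are therefore also given by hashtag. Brackets give 95% intervals that cover counting error only.

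With both hashtags pooled, the summed level of the class I genes among granulocyte-monocyte-like cells was lowest in Mll4SI and highest in Mll3/4SI. Of the 9 genes, 7 had this order singly, all but Tap2 and Tapbp. These 7 kept the order in Hashtag2 cells. In Hashtag1 cells they stayed lowest in Mll4SI, but B2m alone of them stayed highest in Mll3/4SI. There Tap1 was highest in control, and H2-K1, H2-D1, Psmb8, Psmb9 and Nlrc5 were highest in Mll3SI. Summed over the 9 genes, the level was 2304 CPM (2294 to 2314) in control and 2348 in Mll3SI, beside 1623 for Mll4SI and 3146 (3136 to 3156) for Mll3/4SI. HSC/MPP-like cells spanned a narrower range: 3891 CPM (3862 to 3920) in control and 3770 in Mll3SI, beside 3351 for Mll4SI and 4047 (4002 to 4092) for Mll3/4SI. As log2 ratios to control, the summed level in granulocyte-monocyte-like cells was 0.03 for Mll3SI, -0.51 for Mll4SI and 0.45 for Mll3/4SI. In HSC/MPP-like cells the same ratios were -0.05, -0.22 and 0.06.

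**Figure D1:**
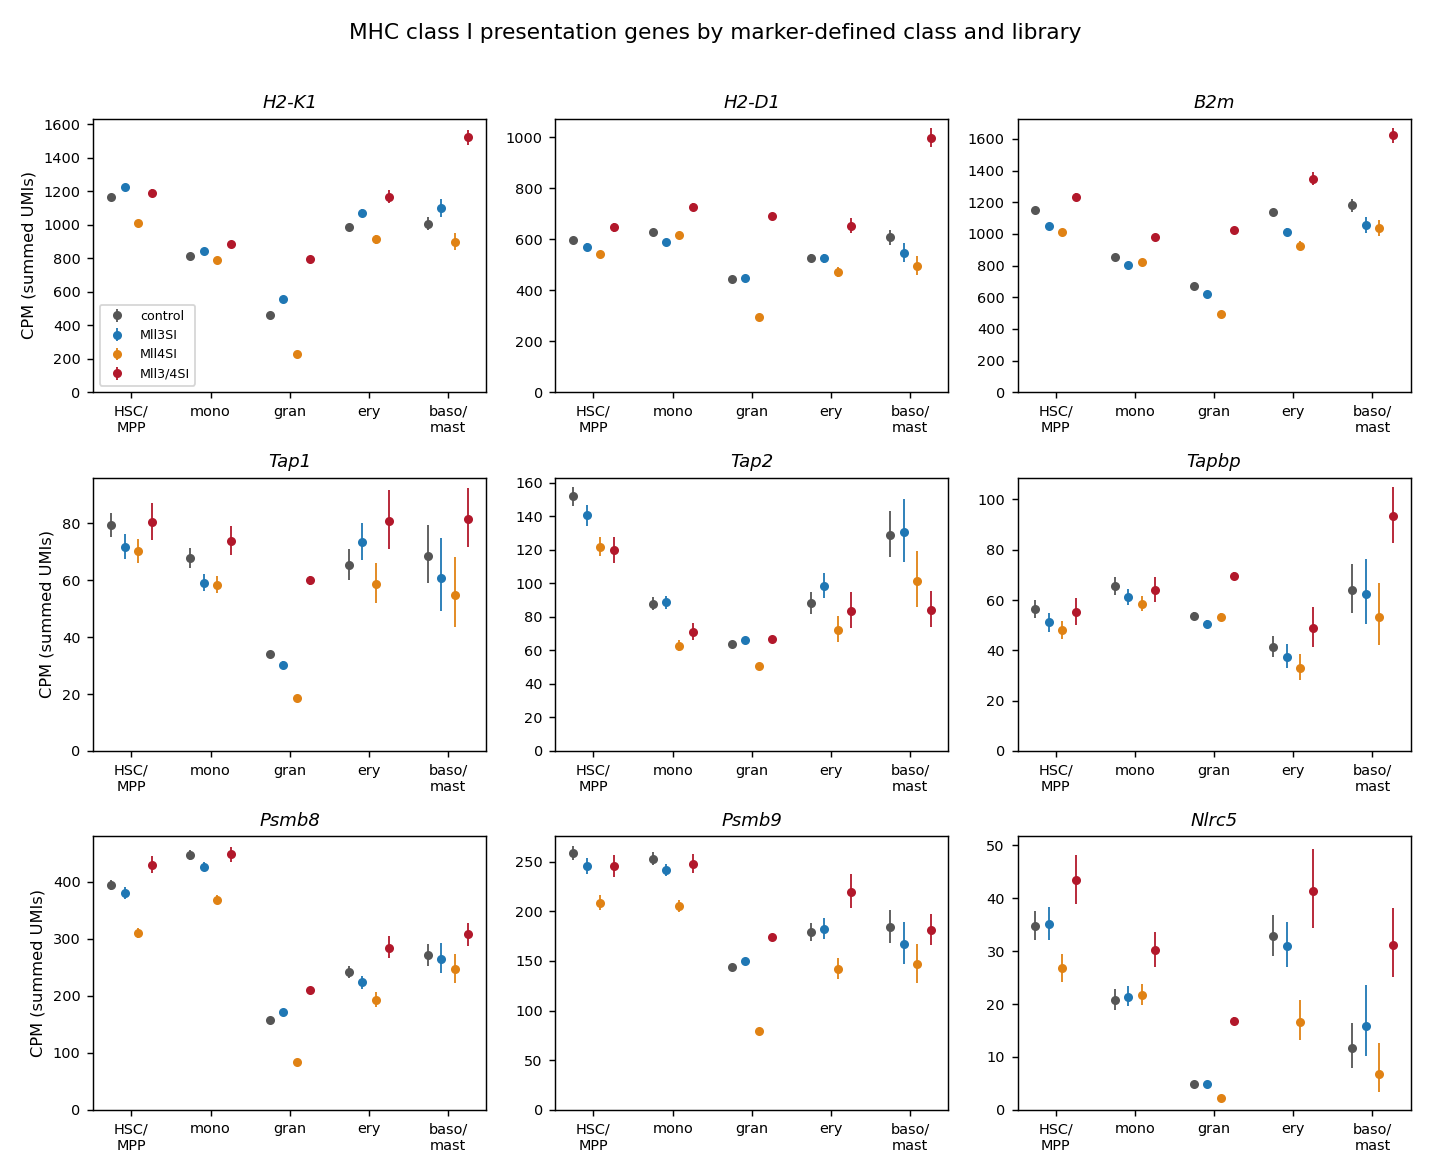
Level of each member in CPM (linear axis from 0, 1 panel a gene) by cell class, with 1 point for each library and bars for the exact 95% Poisson interval of the count. In the granulocyte-like class H2-K1 stood at 228.1 CPM in Mll4SI, 461.1 in control and 794.3 in Mll3/4SI, and the libraries lay closer together in the monocyte-like class.

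H2-K1 and H2-D1 encode the classical heavy chains that hold the peptide. H2-K1 was at 539.3 CPM in control and 625.2 in Mll3SI, beside 332.6 in Mll4SI and 803.1 in Mll3/4SI granulocyte-monocyte-like cells. The log2 ratio of CPM + 1 to control was 0.21 (0.20 to 0.23) for Mll3SI, -0.70 (-0.71 to -0.68) for Mll4SI and 0.57 (0.56 to 0.59) for Mll3/4SI. With both hashtags pooled, Mll4SI was thus lowest, Mll3/4SI highest, and no 2 libraries had overlapping counting intervals. In Hashtag1 cells alone H2-K1 was highest in Mll3SI, at 653.3 CPM beside 489.9 in Mll3/4SI. H2-D1 in the same cells was at 485.1, 481.9, 354.4 and 693.6 CPM in control, Mll3SI, Mll4SI and Mll3/4SI. Here Mll3SI and control overlapped, with a log2 ratio of -0.01 (-0.03 to 0.01), while Mll4SI was lower (-0.45) and Mll3/4SI higher (0.51). The HSC/MPP-like level of H2-K1 was 1168 CPM in control and 1227 in Mll3SI, beside 1008 in Mll4SI and 1191 in Mll3/4SI. H2-D1 there was at 597.1, 571.5, 543.7 and 647.5 CPM in the same order. These HSC/MPP-like log2 ratios to control ran from -0.21 (H2-K1 in Mll4SI) to 0.12 (H2-D1 in Mll3/4SI). H2-K1 and H2-D1 are close paralogs, so the authors' counting may have shifted or dropped reads between them.

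B2m, the light chain that class I heavy chains need, was likewise lowest in Mll4SI and highest in Mll3/4SI. Its level in granulocyte-monocyte-like cells was 713.5 CPM in control and 665.5 in Mll3SI, beside 556.1 in Mll4SI and 1019.5 in Mll3/4SI. The log2 ratio to control was -0.36 (-0.37 to -0.34) for Mll4SI and 0.51 (0.50 to 0.53) for Mll3/4SI. HSC/MPP-like cells had 1150.0, 1048, 1013 and 1234 CPM of B2m in that order of libraries. There the Mll3/4SI value was higher than control by 0.10 (0.07 to 0.14) and the Mll4SI value lower, at -0.18.

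The genes of the transporter differed in Mll3/4SI. Tap1 was at 41.4 CPM in control and 37.2 in Mll3SI, beside 26.2 in Mll4SI and 61.4 in Mll3/4SI granulocyte-monocyte-like cells, with log2 ratios of -0.64 (-0.71 to -0.58) for Mll4SI and 0.55 (0.50 to 0.61) for Mll3/4SI. Tap2 was at 69.2, 71.4, 53.2 and 67.3 CPM in the same cells. Its Mll4SI level was lower than control by the log2 ratio -0.37 (-0.42 to -0.33), and its Mll3/4SI level overlapped control at -0.04 (-0.09 to 0.01), or 0.01 under median-of-ratios scaling. With both hashtags pooled, Tap1 and Tap2 thus both had their lowest level in Mll4SI, but Mll3/4SI was above control for Tap1 and not for Tap2. By hashtag the Mll3/4SI ratios of Tap1 and Tap2 shared a sign: -0.09 and -0.30 in Hashtag1 cells, 0.93 and 0.14 in Hashtag2 cells. The HSC/MPP-like level of Tap1 was 79.5, 71.8, 70.3 and 80.5 CPM, and control and Mll3/4SI overlapped (0.02, -0.12 to 0.15). Tap2 there was at 151.9, 140.6, 122.0 and 119.7 CPM, with both Mll4SI (-0.31) and Mll3/4SI (-0.34, -0.45 to -0.23) below control. Tapbp, which bridges the transporter and the empty heavy chain, was at 56.3, 53.0, 54.4 and 69.0 CPM in granulocyte-monocyte-like cells. Its Mll4SI level overlapped control (-0.05, -0.10 to 0.00) and changed sign to 0.05 under median-of-ratios scaling, and its Mll3/4SI level was higher by 0.29 (0.24 to 0.34). Tapbp in HSC/MPP-like cells was at 56.5, 51.1, 48.1 and 55.2 CPM, lowest in Mll4SI.

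Psmb8 and Psmb9 encode catalytic subunits of the immunoproteasome. Psmb8 was at 222.5 CPM in control and 232.6 in Mll3SI, beside 137.4 in Mll4SI and 233.3 in Mll3/4SI granulocyte-monocyte-like cells. Psmb9 was at 168.4, 172.2, 102.5 and 180.7 CPM there. Both were low in Mll4SI, with log2 ratios of -0.69 (-0.72 to -0.66) and -0.71 (-0.74 to -0.68), and close to control in Mll3/4SI, at 0.07 (0.04 to 0.09) and 0.10 (0.07 to 0.13). These Mll3/4SI ratios had opposite signs by hashtag: -0.16 and -0.27 in Hashtag1 cells, 0.24 and 0.34 in Hashtag2 cells. In granulocyte-like cells alone Psmb8 was at 158.3 CPM in control and 210.8 in Mll3/4SI, a log2 ratio of 0.41 (0.38 to 0.44). The Psmb9 ratio there was 0.27, and in monocyte-like cells the ratios were 0.002 for Psmb8 and -0.03 for Psmb9. Monocyte-like cells numbered 784 in control and 330 in Mll3/4SI, and the part of this mix in the ratios was not tested. Psmb8 in HSC/MPP-like cells was at 394.6, 379.7, 310.1 and 429.9 CPM, and Psmb9 at 258.6, 245.7, 208.7 and 245.7 CPM. Their Mll4SI ratios there, -0.35 and -0.31, lay further from 0 than those of the heavy chains.

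The share of immunoproteasome RNA among a subunit pair describes the same shift without the library total. In granulocyte-like cells Psmb8 made up 55.1% (54.4 to 55.8%) of the UMIs of Psmb8 and Psmb5 in control and 54.6% in Mll3SI, beside 45.5% (44.8 to 46.2%) for Mll4SI and 61.1% (60.6 to 61.6%) for Mll3/4SI. Psmb9 made up 57.5% of Psmb9 and Psmb6 in control and 55.9% in Mll3SI, beside 46.4% in Mll4SI and 59.9% in Mll3/4SI. Psmb10 made up 32.4% of Psmb10 and Psmb7 in control and 36.5% in Mll3SI, beside 26.6% in Mll4SI and 44.97% in Mll3/4SI. All 3 pairs were thus lowest in Mll4SI and highest in Mll3/4SI in granulocyte-like cells. Among HSC/MPP-like cells the Psmb8 share ran from 67.0% in Mll4SI to 72.4% in Mll3/4SI, beside 71.3% in control. The Psmb9 share there was highest in control, at 63.4% beside 62.8% in Mll3/4SI, with overlapping intervals. The Psmb10 share there ran from 48.1% in Mll4SI to 52.7% in Mll3/4SI. In monocyte-like cells only the Psmb9 share was highest in control. In basophil/mast-like cells the Psmb8 and Psmb9 shares were highest in control, and the Psmb10 share was lowest in control. None of the 14 listed constitutive proteasome genes was 1.5-fold from control in HSC/MPP-like or granulocyte-monocyte-like cells in any of the 3 mutants. Of all genes, 0.671% to 4.52% passed that fold in a given direction in these comparisons, so few of 14 would be past it at those shares.

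Nlrc5, the transactivator gene, had the lowest counts and the widest intervals. It was at 8.37 CPM in control and 8.83 in Mll3SI, beside 5.79 in Mll4SI and 18.1 in Mll3/4SI granulocyte-monocyte-like cells. The log2 ratio to control was 0.07 (-0.06 to 0.20) for Mll3SI, -0.47 (-0.59 to -0.34) for Mll4SI and 1.03 (0.91 to 1.14) for Mll3/4SI. Within the granulocyte-like cells alone its level was 4.82, 4.89, 2.14 and 16.8 CPM. Nlrc5 in HSC/MPP-like cells was at 34.8, 35.1, 26.8 and 43.4 CPM, with Mll3/4SI above control by 0.31 (0.12 to 0.50) and Mll3SI overlapping control.

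**Figure D2:**
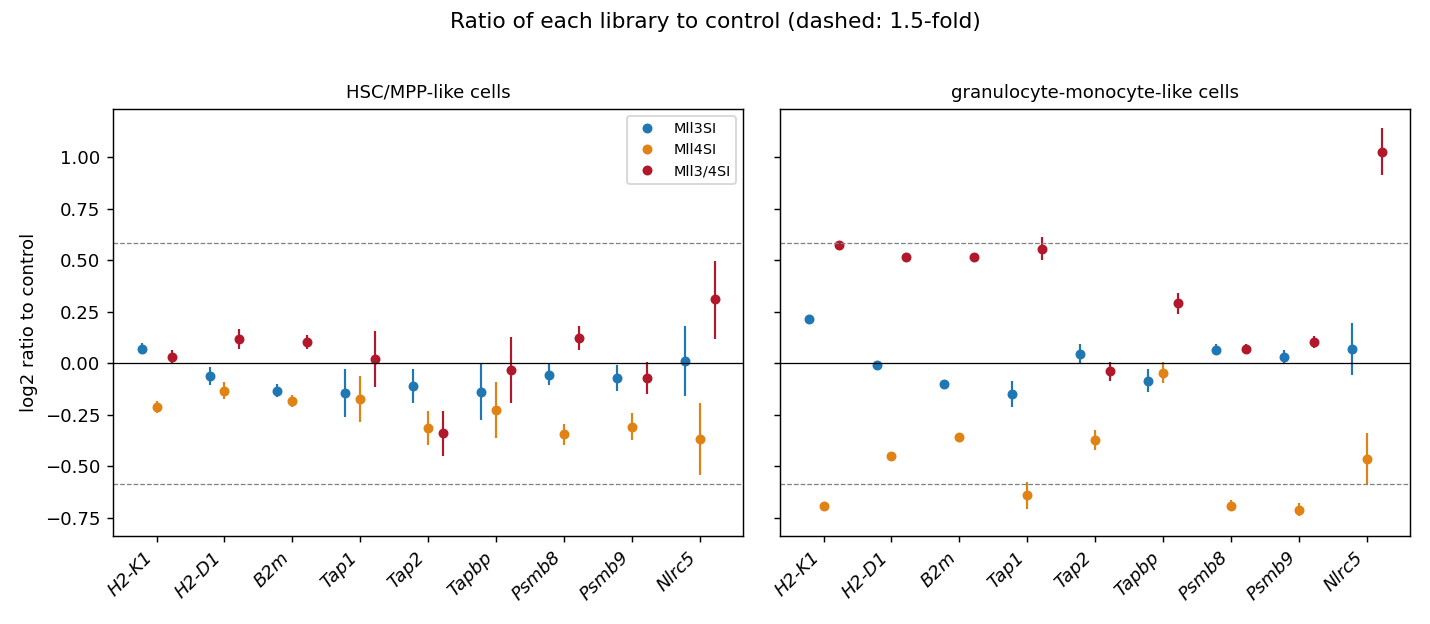
Log2 ratio of CPM + 1 to control for each member in HSC/MPP-like and granulocyte-monocyte-like cells, with 95% counting intervals and dashed lines at 1.5-fold. In granulocyte-monocyte-like cells the Mll4SI points reach -0.71 (Psmb9) and the Mll3/4SI points 1.03 (Nlrc5), while Tap2, Psmb8 and Psmb9 of Mll3/4SI lie between -0.04 and 0.10.

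Set against all genes with a mean of at least 1 CPM, the members' counts read as follows, with 1.5-fold (0.585 on the log2 scale) as the bound. In granulocyte-monocyte-like cells of Mll4SI, 4 of 9 members (H2-K1, Tap1, Psmb8 and Psmb9) were at least 1.5-fold lower, where 4.52% of all genes were, and none was 1.5-fold higher, where 2.95% were. The members' median log2 ratio was -0.47, beside -0.10 for all genes. In Mll3/4SI 1 of 9 (Nlrc5) was at least 1.5-fold higher, where 3.73% of all genes were, and H2-K1 and Tap1 lay just inside the bound. The members' median there was 0.51, beside -0.03 for all genes, and none was 1.5-fold lower, where 2.56% were. Mll3SI had 0 of 9 past the bound, where 0.671% of genes were higher and 1.1% lower, and a median of 0.03. By hashtag the Mll3SI median changed sign, at 0.14 in Hashtag1 cells (7 of 9 members higher than control) and -0.09 in Hashtag2 cells (7 of 9 lower). H2-K1 was at 0.42 and 0.04 in these cells of Mll3SI, and H2-D1 at 0.14 and -0.15.

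In HSC/MPP-like cells no member was 1.5-fold from control in any mutant, also in cluster 4 alone, where the ratios ran from -0.39 (Psmb8 in Mll4SI) to 0.34 (Nlrc5 in Mll3/4SI). The shares of all genes higher and lower by that fold were 1.25% and 1.44% for Mll3SI, 3.58% and 3.9% for Mll4SI, then 2.78% and 2.82% for Mll3/4SI. The members' medians there were -0.07, -0.23 and 0.03, beside 0.00, -0.01 and -0.06 for all genes. In granulocyte-like cells alone, 6 of 9 members were 1.5-fold lower in Mll4SI (9.45% of all genes) and 5 of 9 higher in Mll3/4SI (6.84%): H2-K1, H2-D1, B2m, Tap1 and Nlrc5. Between Mll3/4SI and Mll4SI 7 of 9 were higher there (18.9%). In monocyte-like cells no member passed 1.5-fold in any mutant, where the shares of all genes higher and lower were 0.74% and 0.993% for Mll3SI, 2.89% and 2.46% for Mll4SI, then 2.49% and 1.88% for Mll3/4SI.

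Mll3/4SI and Mll4SI, the pair alike in Xist and Eif2s3y, had more members past 1.5-fold than any mutant had against control. In granulocyte-monocyte-like cells 7 of 9 members, all but Tap2 and Tapbp, were at least 1.5-fold higher in Mll3/4SI, where 5.58% of all genes were, and none was lower, where 3.5% were. The log2 difference was 1.49 (1.38 to 1.61) for Nlrc5, 1.27 (1.25 to 1.29) for H2-K1, 1.197 for Tap1, 0.97 for H2-D1, 0.87 for B2m, 0.81 for Psmb9 and 0.76 for Psmb8. Tapbp at 0.34 and Tap2 at 0.33 were the smallest. In HSC/MPP-like cells Nlrc5, at 0.68 (0.47 to 0.88), was the 1 member past 1.5-fold higher, where 4.19% of all genes were, and none was lower, where 4.17% were. It was at 0.72 in cluster 4 and 0.40 (-0.02 to 0.82) in cluster 17. Psmb8 followed at 0.47, and Tap2 overlapped 0 (-0.03, -0.14 to 0.09).

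Over all granulocyte-monocyte-like cells the single mutants' ratios did not add up to those of the double mutant. All 3 share the control library. For H2-K1 the sum of both single log2 ratios was -0.48 and the Mll3/4SI ratio 0.57, taken here without the added 1 CPM. For Nlrc5 these values were -0.46 and 1.11, and for Tap2 -0.34 and -0.04. In HSC/MPP-like cells Mll3/4SI lay above the sum for every member, least for Tap2 (-0.43 beside -0.34) and H2-K1 (-0.14 beside 0.03). The difference was largest for Nlrc5 (-0.37 beside 0.32), then Psmb8 (-0.40 beside 0.12) and B2m (-0.32 beside 0.10). For Tap2 alone its counting interval held 0 (-0.06 to 0.22). Split by hashtag, every member in HSC/MPP-like cells still lay above the sum, by less in Hashtag1 than in Hashtag2 cells. In Hashtag1 cells (215 of Mll3/4SI) H2-K1 (-0.08 beside -0.06) and Tap2 (-0.43 beside -0.42) lay closest to it. Nlrc5 lay furthest from it there (-0.13 beside 0.32). In Hashtag2 cells (99 of Mll3/4SI) these 3 genes had -0.17 beside 0.26, -0.40 beside -0.14 and -0.66 beside 0.55. By hashtag, the granulocyte-monocyte-like values in Hashtag1 cells lay closest for Nlrc5 (0.18 beside 0.17), Tapbp (0.01 beside 0.02), H2-K1 (-0.03 beside 0.00) and Tap2 (-0.24 beside -0.31). For the other members Mll3/4SI lay above the sum there. These were Psmb8 (-0.29 beside -0.16), Psmb9 (-0.44 beside -0.27), H2-D1 (-0.16 beside 0.06), B2m (-0.28 beside 0.03) and, furthest apart, Tap1 (-0.60 beside -0.10). In Hashtag2 cells the values were -0.82 beside 0.87 for H2-K1, -0.92 beside 1.59 for Nlrc5, -0.43 beside 0.14 for Tap2 and -1.02 beside 0.95 for Tap1.

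The members were also compared cluster by cluster. In the 13 clusters with at least 50 cells of both libraries, H2-K1, Tap1, Tap2, Psmb8 and Psmb9 were lower in Mll4SI than in control in 13 of 13, with median log2 ratios of -0.21, -0.31, -0.31, -0.39 and -0.33. These 5 counts stayed at 13 when each cluster was centred on its median gene ratio. B2m and H2-D1 were also lower in 13 of 13, and in 10 and 11 of 13 after centring. Between Mll3/4SI and control, H2-K1 and Nlrc5 were higher in 16 of 16 clusters with and without centring, with medians of 0.33 and 0.78. Tap1 was higher in 15 of 16 (16 after centring) and Tap2 lower in 16 of 16 (13 after centring, median -0.24). These counts pool both hashtags, and the clusters are parts of the same libraries. Against control cells of the same hashtag, H2-K1 ran from -0.27 (cluster 9) to 0.24 (cluster 7) in Hashtag1 cells. In Hashtag2 cells it ran from 0.25 (cluster 4) to 1.10 (cluster 5). Nlrc5 ran from -0.47 to 0.98 in Hashtag1 and from 0.56 to 3.83 in Hashtag2 cells. Tap2 ran from -0.49 to -0.02 and from -0.54 to 0.27. In Mll3SI, B2m was lower in 17 of 17 clusters (median -0.14) and H2-K1 higher in 16 of 17 (median 0.10), or 15 after centring. Between Mll3/4SI and Mll4SI, H2-K1, H2-D1, Tap1, Psmb8 and Nlrc5 were higher in 13 of 13 with and without centring, with medians of 0.47, 0.53, 0.57, 0.50 and 1.26, and B2m in 13 of 13, or 12 after centring.

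Leaving out the clusters that came mostly from 1 library shrank most differences in granulocyte-monocyte-like cells. Against control, H2-K1 was then at -0.08 in Mll4SI and 0.19 in Mll3/4SI, B2m at -0.09 and 0.25, Tap1 at -0.19 and 0.30, and Psmb9 at -0.32 and -0.05. No member passed 1.5-fold in either mutant. The share of all genes past it without those clusters is not given, so this count has no background to be read against. Nlrc5 was at 0.22 in Mll4SI, the opposite sign to -0.47 with those clusters in, and at 0.57 in Mll3/4SI. The clusters left out had these values. The Mll4SI cluster 0, with Chil3, Camp and Ngp among its leading genes, had a summed level of 988 CPM over 2763 cells, with H2-K1 at 126.7 CPM and Nlrc5 at 1.002 CPM. The Mll3/4SI cluster 13, with Cpa3, Ly6e, Mpo and Prtn3 among its leading genes, had 4793 CPM over 1149 cells, with H2-K1 at 1344 CPM and Nlrc5 at 34.3 CPM. Clusters 15 and 23, led by Cstdc5, Cstdc4 and Stfa1, had 2647 and 2630 CPM. The unnamed cluster 18, led by Angpt1, Arhgap6 and Cpa3, had 4729 CPM, with Nlrc5 at 60.9 CPM.

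**Figure D3:**
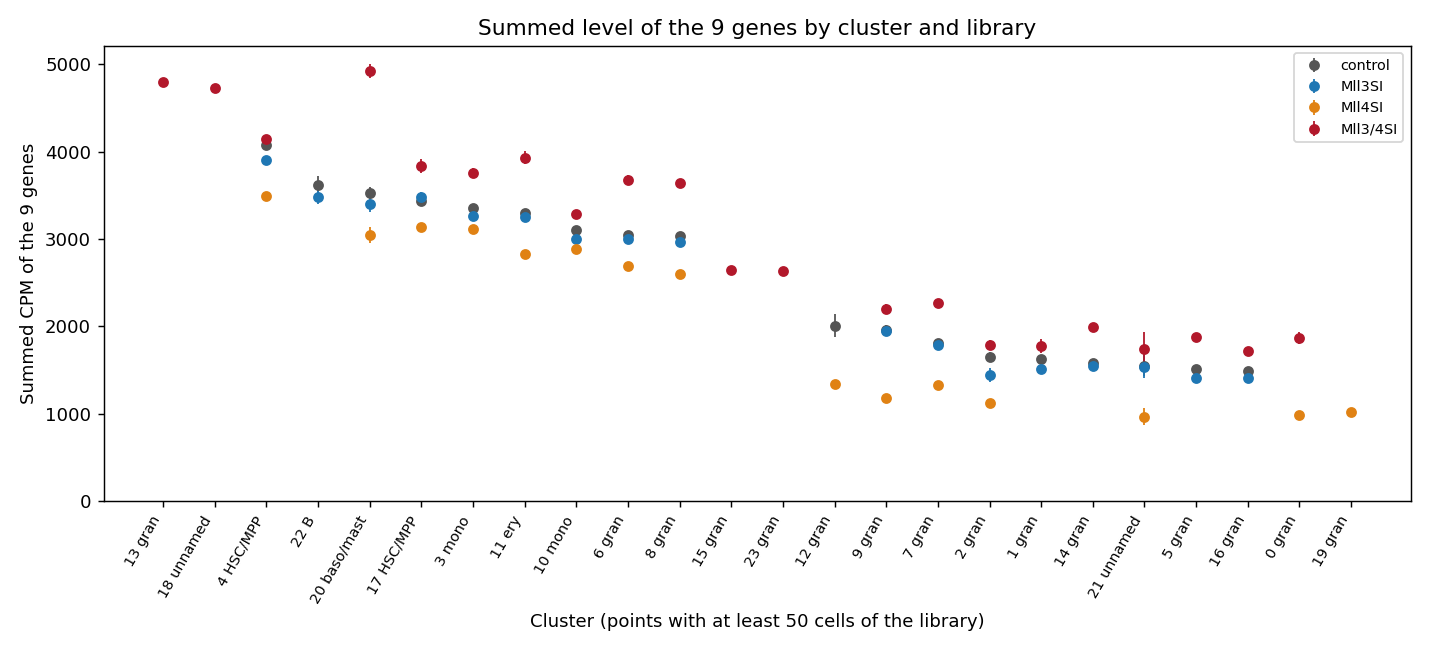
Summed level of the 9 genes in CPM (from 0) for each cluster and library with at least 50 cells, with exact 95% Poisson intervals. Control clusters run from 4072 CPM in the HSC/MPP-like cluster 4 to 1485 in the granulocyte-like cluster 16. With both hashtags pooled, the Mll3/4SI clusters 13 and 18 lie above all HSC/MPP-like values. Hashtag1 cells of Mll3/4SI had 3434 CPM in cluster 13 and 3959 in cluster 18, beside 3847 in cluster 4. Hashtag2 cells of Mll3/4SI had 5262, 5035 and 4869 CPM in these clusters. Control cells of cluster 4 had 3979 CPM (Hashtag1) and 4153 (Hashtag2).

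Cell classes of control differed in the summed level of the 9 genes. It was highest in T/NK-like cells (7729 CPM, 7357 to 8114, from 27 cells) and dendritic-like cells (4904 CPM, 37 cells), then HSC/MPP-like (3891), B-lymphoid-like (3615, 3507 to 3725), basophil/mast-like (3525, 3454 to 3597), erythroid-like (3299, 3260 to 3337), monocyte-like (3237, 3213 to 3262) and granulocyte-like cells (2038). B-lymphoid-like and basophil/mast-like cells, and erythroid-like and monocyte-like cells, are neighbours whose counting intervals overlap. The granulocyte-like clusters themselves spanned a wide range in control. Clusters 6 and 8, led by the primary granule genes Elane, Prtn3 and Ctsg, had 3048 and 3030 CPM, and clusters 1 and 5, led by Chil3, Ltf or Abca13 and Cd177, had 1628 and 1517 CPM. In control Nlrc5 was at 124.0 CPM in T/NK-like, 34.8 in HSC/MPP-like, 20.8 in monocyte-like and 4.82 in granulocyte-like cells. Psmb8 was at 778.3 CPM in dendritic-like, 447.3 in monocyte-like and 394.6 in HSC/MPP-like cells, and at 158.3 in the granulocyte-like class. Both genes had the lowest of these values in granulocyte-like cells.

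Basophil/mast-like cells (161 control, 124 Mll3SI, 104 Mll4SI and 132 Mll3/4SI cells) showed an Mll3/4SI rank like that of granulocyte-like cells, with summed levels of 3525, 3402, 3040 and 4922 CPM. H2-K1 there was at 1007, 1099, 898.2 and 1521 CPM, and Nlrc5 at 11.6, 15.9, 6.85 and 31.2 CPM. Tap2 was again lower in Mll3/4SI, at 84.2 CPM beside 129.0 in control. These values pool both hashtags. Of the Mll3/4SI cells 89 carried Hashtag2, with a sum of 5519 CPM beside 3558 in control cells of that hashtag (0.63). Fewer than 50 carried Hashtag1, so those were not compared. Erythroid-like cells had summed levels of 3299, 3255, 2826 and 3929 CPM, also with hashtags pooled. In Hashtag1 erythroid-like cells the sum was 3273 CPM in control and 3408 in Mll3/4SI (0.06). In T/NK-like cells, 12 to 47 cells a library, the sums were 7729, 5233, 7947 and 9982 CPM.

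The Mll3/4SI level split by hashtag. In Hashtag1 cells of the granulocyte-monocyte-like class H2-K1 was at 489.2 CPM in control and 489.9 in Mll3/4SI, and in Hashtag2 cells at 585.2 and 1072 CPM. B2m was at 695.2 and 711.3 CPM in Hashtag1 cells and 735.0 and 1288 CPM in Hashtag2 cells of control and Mll3/4SI. Nlrc5 was at 7.90 and 8.89 CPM in Hashtag1 cells and 8.68 and 26.0 CPM in Hashtag2 cells. In each of these genes the Hashtag1 cells of Mll3/4SI lay near control and the Hashtag2 cells well above it. Tap1 was at 41.1 and 38.4 CPM, then 41.9 and 81.1 CPM, and H2-D1 at 455.6 and 475.8 CPM, then 514.3 and 876.6 CPM. Tap2 was at 69.3 and 55.9 CPM in Hashtag1 cells and 69.7 and 77.1 CPM in Hashtag2 cells, so its log2 ratio was -0.30 in the first and 0.14 in the second.

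Over the 9 members the median log2 ratio of Mll3/4SI to control was 0.00 in Hashtag1 cells (2317 Mll3/4SI and 2500 control cells), with 0 of 9 past 1.5-fold higher where 2.43% of all genes were. In Hashtag2 cells (2842 and 2459 cells) it was 0.77, with 5 of 9 past it where 5.71% were. The members' median log2 difference between Hashtag2 and Hashtag1 cells of 1 library was 0.10 in control, -0.12 in Mll3SI and -0.10 in Mll4SI, beside 0.86 in Mll3/4SI. Within single clusters of Mll3/4SI the summed level was higher in Hashtag2 than in Hashtag1 cells in 14 of 14 clusters, with a median log2 difference of 0.83 (range 0.34 to 1.15). Against control cells of the same hashtag, the sum in Hashtag1 cells ran from -0.20 to 0.06 over 13 clusters and in Hashtag2 cells from 0.23 to 0.74 over 11. In HSC/MPP-like cells the medians were -0.05 (215 Mll3/4SI cells) and 0.26 (99 cells), with 0 members past 1.5-fold in either, where 3.2% and 7.28% of all genes were higher.

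In Mll4SI 8 of 9 members were below control in Hashtag1 cells and 9 of 9 in Hashtag2 cells of the granulocyte-monocyte-like class. The members' median ratio to control was -0.32 in Hashtag1 cells, with 1 of 9 (Psmb9) past 1.5-fold lower where 2.85% of genes were, and -0.76 in Hashtag2 cells, with 5 of 9 where 8.06% were. H2-K1 was at 358.2 and 320.9 CPM in Hashtag1 and Hashtag2 cells of Mll4SI, both below the 489.2 and 585.2 CPM of control. Between Mll3/4SI and Mll4SI the median was 0.33 in Hashtag1 cells, with 0 past 1.5-fold (2.77% of genes), and 1.22 in Hashtag2 cells, with 7 past it (10.5%).

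**Figure D4:**
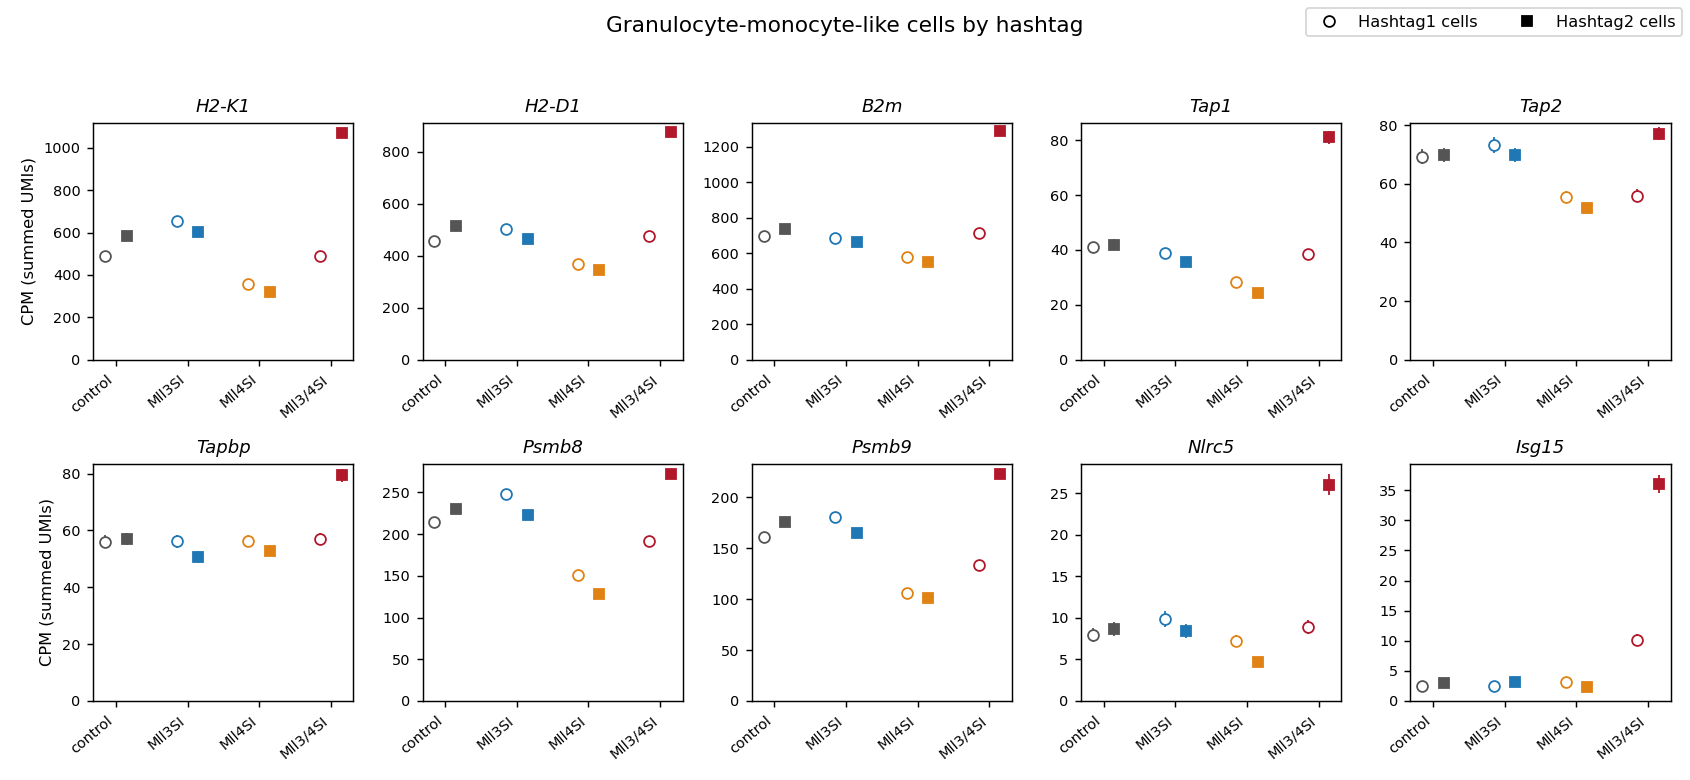
Level in CPM of the 9 members and the interferon-stimulated gene Isg15 in granulocyte-monocyte-like cells of each library, with open circles for Hashtag1 cells and filled squares for Hashtag2 cells and bars for 95% Poisson intervals. The symbols lie closer together in control, Mll3SI and Mll4SI than in Mll3/4SI, where the Hashtag2 square stands apart, at 1072 against 489.9 CPM for H2-K1.

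Most interferon-stimulated genes were above control in Mll3/4SI cells of both hashtags. Against control in granulocyte-monocyte-like cells, their median log2 ratio in Mll3/4SI was 1.07 in Hashtag1 cells, with 11 of 13 measured genes past 1.5-fold (2.43% of all genes), and 2.61 in Hashtag2 cells, with 13 of 13 (5.71%). Isg15 was at 10.1 CPM in Hashtag1 and 36.03 in Hashtag2 cells of Mll3/4SI, beside 2.42 and 2.998 in control.

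Single cells were compared after thinning each to 3000 UMIs, which left out 42 control, 42 Mll3SI, 100 Mll4SI and 55 Mll3/4SI granulocyte-monocyte-like cells of lower depth. The median cell of that class then held 6 UMIs of the 9 genes in control and 6 in Mll3SI, beside 3 in Mll4SI and 8 in Mll3/4SI. Without thinning, the medians were 18.8, 19.6, 11.5 and 27.2 UMIs per 10000. More than 11 UMIs, the 90th percentile of control, were held by 9.55% of control cells, 10.0% of Mll3SI, 3.78% (3.39 to 4.20%) of Mll4SI and 28.8% (27.6 to 30.1%) of Mll3/4SI cells. By hashtag, the Mll3/4SI median was 5 in Hashtag1 and 11 in Hashtag2 cells, beside 5 and 6 in control. HSC/MPP-like cells had medians of 12, 11, 10 and 12, and 8.02%, 7.36%, 3.83% and 10.97% of them held more than 18.

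**Figure D5:**
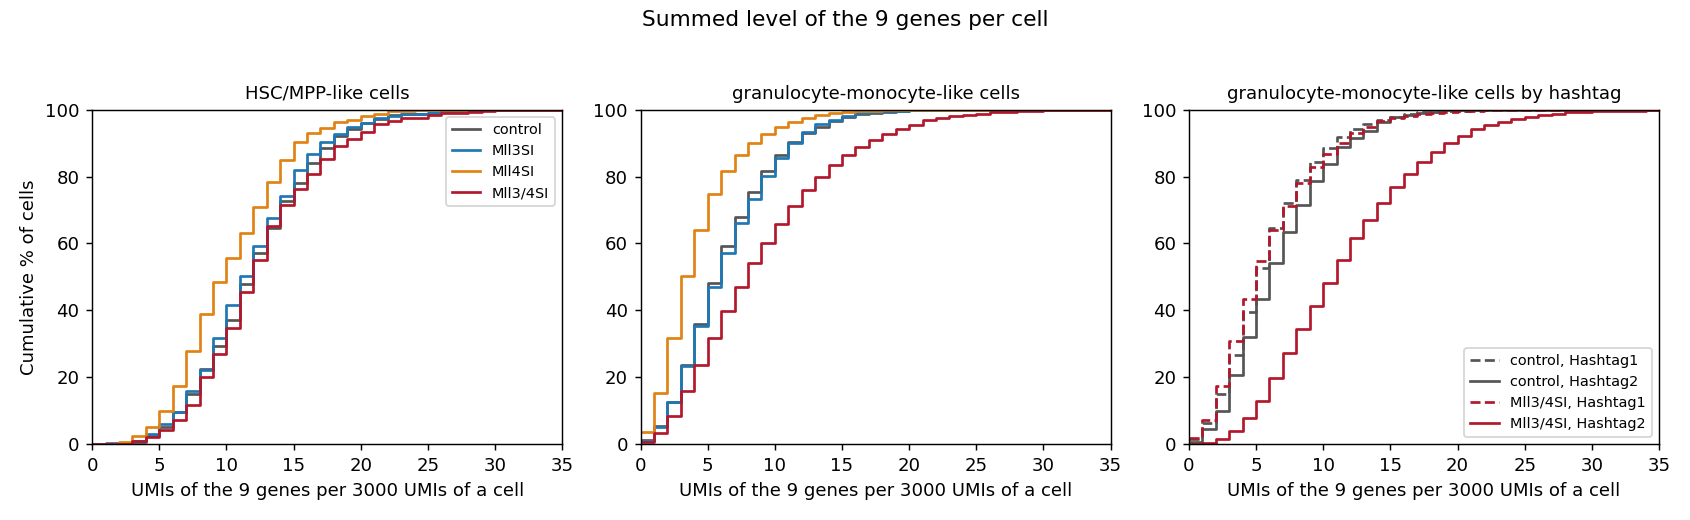
Cumulative percent of cells (vertical axis) against the UMIs of the 9 genes per 3000 UMIs (horizontal axis), for HSC/MPP-like and granulocyte-monocyte-like cells by library, and for the latter by hashtag in control and Mll3/4SI. The Mll4SI curve lies to the left (median 3) and the Mll3/4SI curve to the right (median 8) of control (median 6), and Hashtag1 cells of Mll3/4SI follow control.

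Other class I genes were taken from a list of 16, of which 11 reached a mean of 1 CPM in the HSC/MPP-like class and 9 in the granulocyte-monocyte-like class. In the latter, 6 of 9 were at least 1.5-fold higher in Mll3/4SI (3.73% of all genes) and 5 of 9 lower in Mll4SI (4.52%), with medians of 0.66 and -0.66. H2-Q7, a nonclassical heavy chain, was at 40.7 CPM in control and 43.3 in Mll3SI, beside 20.0 in Mll4SI and 157.4 in Mll3/4SI. Its log2 ratio of 1.93 (1.88 to 1.98) in Mll3/4SI was larger than that of any of the 9 members. H2-Q6 was at 9.35, 7.74, 4.42 and 36.8 CPM, and H2-Q4 at 13.5, 11.8, 9.12 and 32.0 CPM. H2-Q6 and H2-Q7 are near-identical, so the split of reads between them is uncertain. H2-T23, which encodes the Qa-1 ligand of an inhibitory NK receptor, was at 41.8, 26.3, 30.8 and 66.6 CPM. It was the 1 gene of the list past 1.5-fold in Mll3SI, at -0.65 (-0.72 to -0.58) in granulocyte-monocyte-like and -0.69 (-0.81 to -0.58) in HSC/MPP-like cells. Of all genes, 1.1% and 1.44% were lower by that fold in these classes. H2-Q6 alone passed 1.5-fold in HSC/MPP-like cells of Mll3/4SI, at 63.5 CPM beside 38.2 in control (0.72), where 2.78% of all genes were higher.

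Of 8 loading and processing partners, none passed 1.5-fold in Mll3/4SI against control in either class. The shares of all genes higher and lower were 2.78% and 2.82% in HSC/MPP-like cells, then 3.73% and 2.56% in granulocyte-monocyte-like cells. In Mll4SI granulocyte-monocyte-like cells Calr (664.3 CPM in control, 422.4 in Mll4SI; -0.65) and the tapasin-related Tapbpl (11.03 and 6.90 CPM; -0.61) were lower by that fold, as were 4.52% of all genes. Psme1, a subunit of the interferon-induced proteasome cap, was at 124.0, 126.8, 96.3 and 153.6 CPM in control, Mll3SI, Mll4SI and Mll3/4SI. The 14 regulators cover interferon signalling and the partners that bind MHC promoters with Nlrc5. Of these, Irf9 alone passed 1.5-fold in Mll3/4SI granulocyte-monocyte-like cells, where 3.73% of all genes were higher by that fold. It was at 16.4 CPM in control and 26.4 in Mll3/4SI (0.66). Of 5 listed class II genes, Cd74 and H2-Eb1 were 1.5-fold higher in HSC/MPP-like cells of Mll3/4SI, where 2.78% of all genes were. Cd74 and H2-Aa were lower by that fold in Mll4SI, where 3.9% were. Levels were low, as the 11 dendritic markers, Cd74, H2-Aa and H2-Eb1 among them, summed to 53.4 CPM in control. Their sums were 42.0 CPM in Mll4SI and 71.0 in Mll3/4SI.

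Over 22 combinations of library and class with at least 50 cells, the gene whose level followed the members' mean profile most closely among 8629 genes was Bst2 (Pearson r 0.949), which encodes tetherin. Psme1 (0.940), H2-T22 (0.920), Phpt1 (0.920) and Rps20 (0.912) came next. Among the members themselves r was 0.952 for Tap1 and 0.935 for H2-K1, against 0.635 for Tap2 and 0.237 for Tapbp. These points share 4 libraries, so the values are a description.

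Markers of other cells were summed beside these results. Granulocyte markers, all 13 of them detected, came to 8508 CPM in control and 8722 in Mll3SI, beside 16774.5 in Mll4SI and 9487 in Mll3/4SI HSC/MPP-like cells. Mll4SI had the highest value of these and the lowest summed class I level. T/NK markers, a class with high class I levels, came to 8.47 to 24.6 CPM in HSC/MPP-like cells, with Cd3e at 0 in all 4 libraries, and to 31.2, 21.1, 1.03 and 13.5 CPM in granulocyte-monocyte-like cells. Basophil/mast markers came to 96.6, 94.6, 67.7 and 295.5 CPM in granulocyte-monocyte-like cells, and HSC/MPP markers to 178.1, 200.4, 165.2 and 324.5 CPM, both highest in Mll3/4SI. The part of these markers in the results was not tested.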

How the data were processed

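RNA and antibody tags of 4 libraries (control, Mll3SI, Mll4SI and Mll3/4SI; groups from the sample titles) were deposited as counts of UMIs per feature and barcode, made with Cell Ranger 7.1.0 on mm10 from 10x 3′ version 3.1 libraries, per the submitters' processing notes and the labels. Annotation and cell calling are not given in the sources used here. Depth per library was 140546094, 141489749, 177753607 and 158323616 gene UMIs in that order.

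Cells with at least 500 genes, 1000 UMIs and at most 10% mitochondrial UMIs were kept, and 409 to 1001 doublets per library (highest Scrublet scores, 0.8% per 1000 cells) were removed. Clusters (scanpy 1.11.5 with leidenalg 0.10.2 on Python 3.11.15) came from 2000 variable genes without markers, members, listed genes or sex genes, with 30 components, 15 neighbours and Leiden resolution 1. A cluster needed 3 markers of a class, and its name was withheld where another class had as many among the top 10 genes, a rule set after the clusters were seen. Class names were made anew and need not match the study's. Hashtag thresholds were 126 UMIs (Hashtag1) and 312 (Hashtag2).

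UMIs were summed per library and class as CPM, and ratios are log2 of CPM + 1, which understates changes of low genes. Intervals (exact Poisson, exact binomial) are at 95%. The calculation was tested on simulated data. Coordinates are from GENCODE M21, which held 32235 of the 32285 gene IDs. All 9 members are named in every class, and list genes by their 1.5-fold call or role. The members and lists were chosen with earlier results of these data known.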

Additional observations from a re-analysis of the deposited data

How the results depend on the processing

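Counts of members past 1.5-fold moved with the processing as follows. Shares of all genes under these alternatives are not given, apart from those by hashtag above. In granulocyte-monocyte-like cells the count higher in Mll3/4SI than in control, 1 as reported, was 3 under median-of-ratios scaling, 3 under Leiden resolution 2, 3 as a mean over cells, 2 without cells of both hashtags, 0 without clusters mostly of 1 library, 0 in Hashtag1 cells and 5 in Hashtag2 cells. The count lower in Mll4SI than in control, 4 as reported, was 0 without those clusters, 1 in Hashtag1 cells and 0 at 2-fold. The count higher in Mll3/4SI than in Mll4SI, 7 as reported, was 0 without those clusters, 0 in Hashtag1 cells and 3 at 2-fold. There Psmb8 and Tap2 changed sign without those clusters, to -0.032 and -0.062. In HSC/MPP-like cells the count higher in Mll3/4SI than in Mll4SI, 1 as reported, was 0 with 10 CPM added, 0 under Leiden resolution 2, 0 in Hashtag1 cells and 0 at 2-fold. Against control in Mll3/4SI, 0 as reported, 1 was lower with the class of the nearest control cells, and 1 lower and 1 higher with the unnamed cluster counted in. In Hashtag2 cells of Mll4SI 1 was lower, where 0 is reported. The other 211 counts under the alternatives stayed within 1.5 times of those reported. Single-gene ratios moved by no more than their counting interval in 781 cases and by more in 298, and these include the values by hashtag and without 1-library clusters given above. The causes were not tested. Depth limits Nlrc5 most, the member with the fewest UMIs. No paired analysis was possible because each group has 1 library and the labels give no replicate numbers.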
